A study of Rattus norvegicus with 12 samples.

Results

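Tnfrsf12a and 9 other genes of TNF receptor signalling were followed in cortical neuroglial cultures given secreted products of glial progenitor cells (GPCs). The 10 genes were picked by name from the 28111 gene names in the files. They are 6 receptors (Tnfrsf12a, Tnfrsf1a, Tnfrsf1b, Tnfrsf21, Fas and Ngfr), 1 ligand (Tnfsf12) and 3 adaptors (Traf1, Traf2 and Traf3), and each has 1 row per library. The choice was made with the values of EV against IC already known, among them the height of Tnfrsf12a after EV. Member values of that comparison are therefore a description and carry no p-value here.

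Cortical cells of Wistar rat pups (postnatal day 0 per the labels, days 1 to 2 per the article) were cultured for 10 days, with cytosine arabinoside, which limits glial proliferation, added in the course of the culture per the article, and RNA was taken 4 h after an addition. Extracellular vesicles of GPCs derived from human induced pluripotent stem cells (EV) were given at 10 µg/mL, the secreted total secretome at 45 µg/mL and its proteins of 3–100 kDa at 15 µg/mL. The intact control (IC) received nothing, and no group given an equal volume of vehicle was analysed here. Each group has 3 libraries. The preparations were dosed differently, so the effect of composition and that of dose cannot be told apart. The labels do not say whether the cultures of a group came from separate animals, so p-values measure the spread between these libraries, which may be technical.

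Levels are in TPM, transcript abundance corrected for length and scaled to a total of 1000000 in each library, so that levels of different genes can be compared. Read depth cannot be recovered from TPM, so it is unknown and intervals for counting error are not given. A listed 0 may be a failed estimate, since none of the 12 libraries has a value above 0 for Rps6, a ribosomal protein gene, while Actb lies between 2487 and 3158 TPM. Differences are on the log2(TPM + 1) scale with the first-named group minus the second, after rescaling of libraries within a comparison. This scale understates the change of low genes. A call is an adjusted p (FDR) under 0.05 in limma over all genes tested, and genes were tested that reached 1 TPM in 3 or more of the 6 libraries. For a single value, an exact permutation test of 3 libraries against 3 cannot go below a two-sided p of 0.1. The cultures are mixed, so more cells of a type and more RNA per cell cannot be told apart.

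Receptors of the TNF superfamily are membrane proteins that bind trimeric ligands and signal without enzyme activity of their own, by recruiting TRAF adaptors or death-domain proteins. Tnfrsf12a encodes Fn14, the receptor of the cytokine TWEAK (Tnfsf12), which binds TRAF proteins and can activate NF-κB. In many tissues Fn14 is scarce at rest and is induced by injury and growth factors. Tnfrsf1a and Tnfrsf1b encode the receptors of TNF, Fas the receptor of Fas ligand, Tnfrsf21 death receptor 6 and Ngfr the neurotrophin receptor p75. Of these, Tnfrsf1a, Fas, Tnfrsf21 and Ngfr carry a death domain, while Tnfrsf12a and Tnfrsf1b do not.

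The start of transcription of 8 of the 10 genes is in the RefSeq promoter table of build GRCr8, a window from 250 bases before to 50 bases after the start. Deposited values rest on Rnor_6.0, so these positions do not apply to them. Upstream stretches of Tnfrsf12a (chr10:13213667-13213836, minus strand) and Tnfrsf1a (chr4:159836869-159837118, plus strand) are printed 5′ to 3′ because these are the members that passed the test in a comparison, with bases that lie in an annotated gene left out. Capitals mark the GC box GGGCGG or its complement CCGCCC, searched on both strands and added after the sequence was seen.
Tnfrsf12a: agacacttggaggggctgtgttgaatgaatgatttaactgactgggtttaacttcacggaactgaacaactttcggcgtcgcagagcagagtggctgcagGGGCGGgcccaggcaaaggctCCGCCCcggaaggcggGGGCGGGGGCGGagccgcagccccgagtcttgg
Tnfrsf1a: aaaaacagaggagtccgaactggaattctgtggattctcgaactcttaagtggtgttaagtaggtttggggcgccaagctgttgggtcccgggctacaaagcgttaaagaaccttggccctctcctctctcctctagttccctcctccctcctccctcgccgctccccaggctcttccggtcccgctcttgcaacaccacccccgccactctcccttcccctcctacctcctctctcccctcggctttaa
The Tnfrsf12a stretch of 170 bases had 62.4% G and C and 4 GC boxes, and the Tnfrsf1a stretch of 250 bases had 57.6% and 0 GC boxes. The box occurred in 6 of the 8 windows and in 33.1% of all 33469 promoter windows in the table.

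Binding patterns of the factors that TNF receptor signalling is known to act through were sought in the same windows on both strands. The AP-1 pattern TGANTCA was in 3 of 8 members (Tnfrsf1b, Fas and Traf1) against 7.33% of all promoters. The NF-κB pattern, GGG and TTCC with any 3 bases between them, was in 2 of 8 (Traf1 and Traf3) against 5.37%, and these matches are shown in capitals with their flanks.
Traf1: taaccacagaGGGTAATTCCtactccaccc
Traf3: ggcggcccgcGGGGATTTCC
The Traf1 stretch lies at chr3:38635858-38635887 (minus strand) with the match beginning at position −107 from the start, and the Traf3 stretch at chr6:136027029-136027048 (plus strand) with the match at position −10. Neither pattern was in the Tnfrsf12a or Tnfrsf1a window. A match is a run of letters and not a tested binding site, and its absence says only that these letters are not in the window.

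Tnfrsf12a separated all 4 groups. The IC libraries held 0.953, 3.10 and 1.22 TPM in replicates 1 to 3. After EV the libraries stood at 29.3, 36.4 and 22.3 TPM, after the total secretome at 49.4, 58.8 and 65.3 TPM, and after the 3–100 kDa proteins at 88.6, 94.4 and 99.9 TPM. Every treated library was above every IC library, as for 3.68% of all genes tested after EV, 13.1% after the total secretome and 12.6% after the 3–100 kDa proteins, and no library of 1 treatment reached the range of another. Group means were 1.76 ± 1.17 TPM (SD, n = 3) in IC, 29.3 ± 7.04 after EV, 57.8 ± 8.01 after the total secretome and 94.3 ± 5.65 after the 3–100 kDa proteins, which is 16.7, 32.9 and 53.6 times the IC mean. The IC mean is low, and 1 of its 3 libraries was above the other 2, so these ratios are uncertain. The order of the treatments was not that of the doses, since the largest dose gave the middle level.

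**Figure D1:**
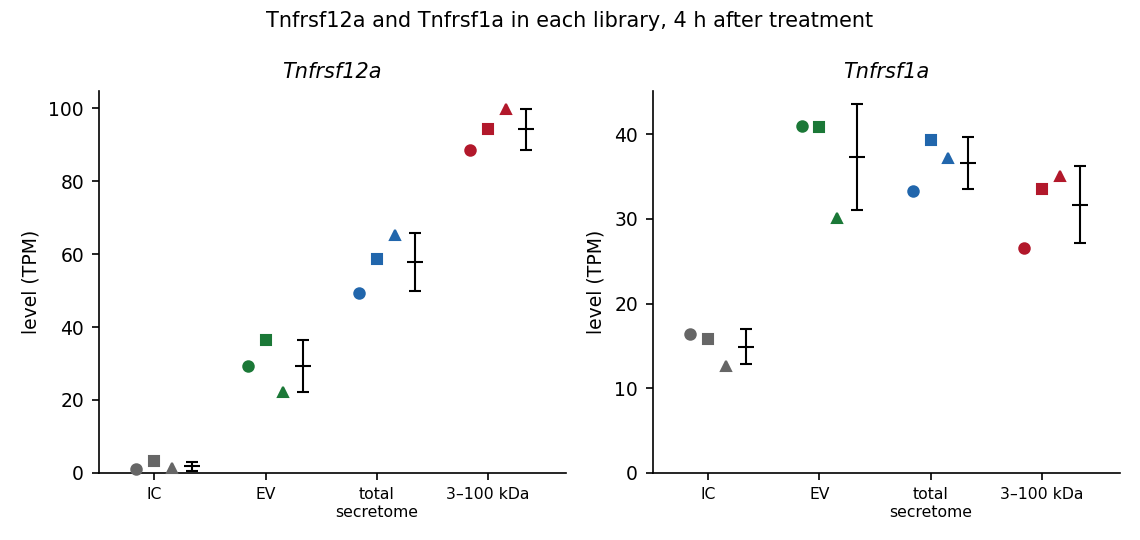
Levels of Tnfrsf12a and Tnfrsf1a in TPM (vertical axes, from 0) in the 3 libraries of each group, with circles, squares and triangles for replicates 1, 2 and 3 and a bar for the mean ± SD. The Tnfrsf12a libraries form 4 separate ranges, from at most 3.10 TPM in IC to at least 88.6 TPM after the 3–100 kDa proteins, while the Tnfrsf1a libraries of all 3 treatments lie above IC and overlap with one another.

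Against IC, Tnfrsf12a was up-regulated by both preparations whose comparison did not guide the choice, although they share the IC libraries with the one that did. After the 3–100 kDa proteins the log2 difference was 5.21 (standard error 0.29, limma adjusted p = 0.000387), the third largest rise among 12788 genes tested, behind Ccl2 and Plau. After the total secretome it was 4.50 (standard error 0.30, limma adjusted p = 0.00209), behind Ccl2 alone among 12787 genes. Leaving out any 1 library kept both calls, with the difference between 4.97 and 5.52 for the 3–100 kDa proteins and between 4.26 and 4.81 for the total secretome. After EV the log2 difference was 3.50 (standard error 0.32), given as a description.

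Between treatments, Tnfrsf12a was lower after EV than after the 3–100 kDa proteins by a log2 difference of −1.70 (standard error 0.18, limma adjusted p = 0.0182). The EV libraries of this comparison are those whose height was known when the genes were picked, so the test is not independent of the choice, and the same holds for EV against the total secretome. The call rested on the full set of libraries. The adjusted p was 0.0551, 0.112 and 0.138 without 3–100 kDa replicates 1, 2 and 3, and 0.0700 and 0.0512 without EV replicates 2 and 3, while it was 0.0193 without EV replicate 1. The size of the difference stayed between −1.83 and −1.54 in these omissions. The other contrasts between treatments did not pass the test although their libraries did not overlap. EV against the total secretome gave −0.99 (95% interval −1.47 to −0.50, limma adjusted p = 0.237). The total secretome against the 3–100 kDa proteins, which shares no library with EV or IC, gave −0.71 (95% interval −1.09 to −0.32, limma adjusted p = 0.9999). In these 2 comparisons 7.47% and 3.23% of all genes tested had every library of the first-named group below every other, and 8.98% had so in EV against the 3–100 kDa proteins.

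Tnfrsf12a moved up among the receptors of its superfamily. Of 25 receptor genes (the 6 members and 19 others), it ranked sixth by mean TPM in IC, after Tnfrsf21, Tnfrsf1a, Ltbr, Tnfrsf19 and Fas. It ranked second after EV, behind Tnfrsf1a, and first after the total secretome and after the 3–100 kDa proteins. Its share of the summed TPM of the 25 receptors was 1.39 to 5.02% in IC, 20.2 to 28.2% after EV, 35.3 to 42.5% after the total secretome and 50.3 to 54.5% after the 3–100 kDa proteins. The other 24 receptors together held 58.6 to 67.7 TPM in IC, 87.8 to 92.8 after EV, 88.3 to 97.5 after the total secretome and 73.9 to 93.4 after the 3–100 kDa proteins. In IC its range overlapped with that of its neighbour Fas (1.34 to 2.42 TPM) and lay below that of Tnfrsf19 (5.49 to 7.61 TPM). After EV it overlapped with Tnfrsf1a above it and with Tnfrsf21 below it. After the total secretome and after the 3–100 kDa proteins its lowest library was above the highest of Tnfrsf1a.

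Tnfrsf1a, the main receptor through which TNF signals in most cell types, was also higher after every preparation. The IC libraries were at 16.4, 15.8 and 12.6 TPM. Libraries of EV stood at 41.0, 40.9 and 30.1 TPM, those of the total secretome at 33.3, 39.4 and 37.2 TPM and those of the 3–100 kDa proteins at 26.5, 33.5 and 35.1 TPM. All 9 treated libraries lay above all 3 IC libraries, and the ranges of the treatments overlapped. Libraries lay above IC without overlap for 3.68% of all genes after EV, 13.1% after the total secretome and 12.6% after the 3–100 kDa proteins. Means were 14.9 ± 2.05 TPM (SD, n = 3) in IC, 37.4 ± 6.26 after EV, 36.6 ± 3.08 after the total secretome and 31.7 ± 4.53 after the 3–100 kDa proteins.

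The rise of Tnfrsf1a passed the test after the total secretome (log2 difference 1.26, standard error 0.15, limma adjusted p = 0.00895) and after the 3–100 kDa proteins (1.07, standard error 0.18, limma adjusted p = 0.0243), and the description after EV was 1.25 (standard error 0.17). Single libraries decided these calls. For the total secretome the adjusted p was 0.0506 without IC replicate 1, 0.0842 without total secretome replicate 2 and 0.0768 without total secretome replicate 3. For the 3–100 kDa proteins it was 0.105 without IC replicate 1, 0.0763 without IC replicate 3, 0.138 without 3–100 kDa replicate 2 and 0.140 without 3–100 kDa replicate 3. Over all omissions of 1 library the log2 difference itself lay between 1.20 and 1.38 for the total secretome and between 0.93 and 1.22 for the 3–100 kDa proteins.

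No difference in Tnfrsf1a between treatments was shown. EV against the 3–100 kDa proteins gave a log2 difference of 0.20 (95% interval −0.25 to 0.65, limma adjusted p = 0.874), and the total secretome against the 3–100 kDa proteins gave 0.21 (−0.19 to 0.60, limma adjusted p = 0.9999). EV against the total secretome gave 0.0045 (−0.39 to 0.40, limma adjusted p = 0.999). These intervals leave room for differences of up to about 0.6 on the log2 scale in either of the first contrasts. The treatments ranked differently for Tnfrsf12a and Tnfrsf1a by mean TPM, with the 3–100 kDa proteins giving the highest mean of the former and the lowest treated mean of the latter.

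The other death-domain receptors did not pass the test in any comparison. Tnfrsf21, which is known for a role in neuronal pruning and death, was among the highest receptors in IC, with 27.9, 18.1 and 28.1 TPM. It stood at 21.0, 27.2 and 33.2 TPM after EV, at 31.8, 27.7 and 27.9 TPM after the total secretome and at 27.4, 34.2 and 28.3 TPM after the 3–100 kDa proteins. Treated and IC libraries overlapped, apart from IC replicate 2, which was the lowest of all 12. Differences from IC were 0.13 (EV), 0.27 (total secretome, limma adjusted p = 0.558) and 0.32 (3–100 kDa proteins, limma adjusted p = 0.509).

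Fas and Ngfr were near 1 TPM. Fas, the receptor that starts caspase-dependent death when its ligand binds, held 1.81, 2.42 and 1.34 TPM in IC. After EV it was at 0.488, 1.46 and 1.39 TPM, after the total secretome at 1.10, 1.12 and 1.67 TPM and after the 3–100 kDa proteins at 0.857, 1.69 and 1.92 TPM. The deposited levels of the treated groups overlapped with IC. After rescaling, every EV library was below every IC library, as for 316 of 12749 genes tested. The differences of Fas from IC were −0.46 (EV), −0.29 (total secretome, limma adjusted p = 0.641) and −0.18 (3–100 kDa proteins, limma adjusted p = 0.812). Ngfr stood at 0.412, 0.535 and 1.19 TPM in IC, 0.829, 0.939 and 1.15 after EV, 1.01, 0.939 and 0.553 after the total secretome and 1.11, 2.15 and 0.947 after the 3–100 kDa proteins. It reached 1 TPM often enough to be tested only in the comparisons with the 3–100 kDa proteins, where the difference from IC was 0.48 (limma adjusted p = 0.474).

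Tnfrsf1b, the TNF receptor found mainly on immune and glial cells, was barely listed. It was at 0, 0 and 0.0900 TPM in IC, at 0.171, 0.213 and 0.261 after EV, at 0, 0.163 and 0.209 after the total secretome and at 0.0834, 0.369 and 0.536 after the 3–100 kDa proteins. These levels are under the filter, and no difference is given.

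The only ligand among the members did not run with its receptor. Tnfsf12, which encodes TWEAK, held 3.51, 1.80 and 1.25 TPM in IC, 1.87, 1.69 and 1.38 after EV, 1.39, 1.62 and 1.04 after the total secretome and 2.48, 1.61 and 1.22 after the 3–100 kDa proteins. All groups overlapped, and the differences from IC were −0.21 (EV), −0.37 (total secretome, limma adjusted p = 0.589) and −0.14 (3–100 kDa proteins, limma adjusted p = 0.868). The ratio of Tnfrsf12a to Tnfsf12 in TPM was 0.271 to 1.72 in the IC libraries. It was 15.7 to 21.5 after EV, 35.4 to 62.8 after the total secretome and 35.7 to 82.2 after the 3–100 kDa proteins, so the receptor transcript exceeded that of its ligand in every treated library.

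Adaptors of the set did not pass the test. Traf2, the TRAF protein that TNF receptor complexes and Fn14 recruit, held 5.74, 10.2 and 4.77 TPM in IC, 6.73, 6.70 and 4.36 after EV, 6.54, 7.49 and 7.18 after the total secretome and 7.76, 7.82 and 4.60 after the 3–100 kDa proteins. IC covered the range of all treated libraries but the lowest of EV and of the 3–100 kDa proteins, and the differences were −0.16 (EV), 0.11 (total secretome, limma adjusted p = 0.896) and 0.02 (3–100 kDa proteins, limma adjusted p = 0.982). Traf3, which restrains the alternative NF-κB pathway, held 10.0, 8.16 and 9.15 TPM in IC and 7.71, 12.4 and 9.03 TPM after EV. It was at 10.7, 12.5 and 13.1 TPM after the total secretome, above each IC library as for 13.1% of all genes, and at 8.60, 16.6 and 12.9 TPM after the 3–100 kDa proteins. Differences of Traf3 from IC were 0.05 (EV), 0.39 (total secretome, limma adjusted p = 0.339) and 0.43 (3–100 kDa proteins, limma adjusted p = 0.452).

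Traf1, an adaptor without a RING domain whose gene is a known NF-κB target, was low. Its libraries held 1.16, 1.06 and 0.562 TPM in IC, 0.802, 0 and 0.136 after EV, 0.823, 0.766 and 0.163 after the total secretome and 0.781, 0.230 and 0.359 after the 3–100 kDa proteins. It stayed under the filter in all comparisons and was not tested.

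**Figure D2:**
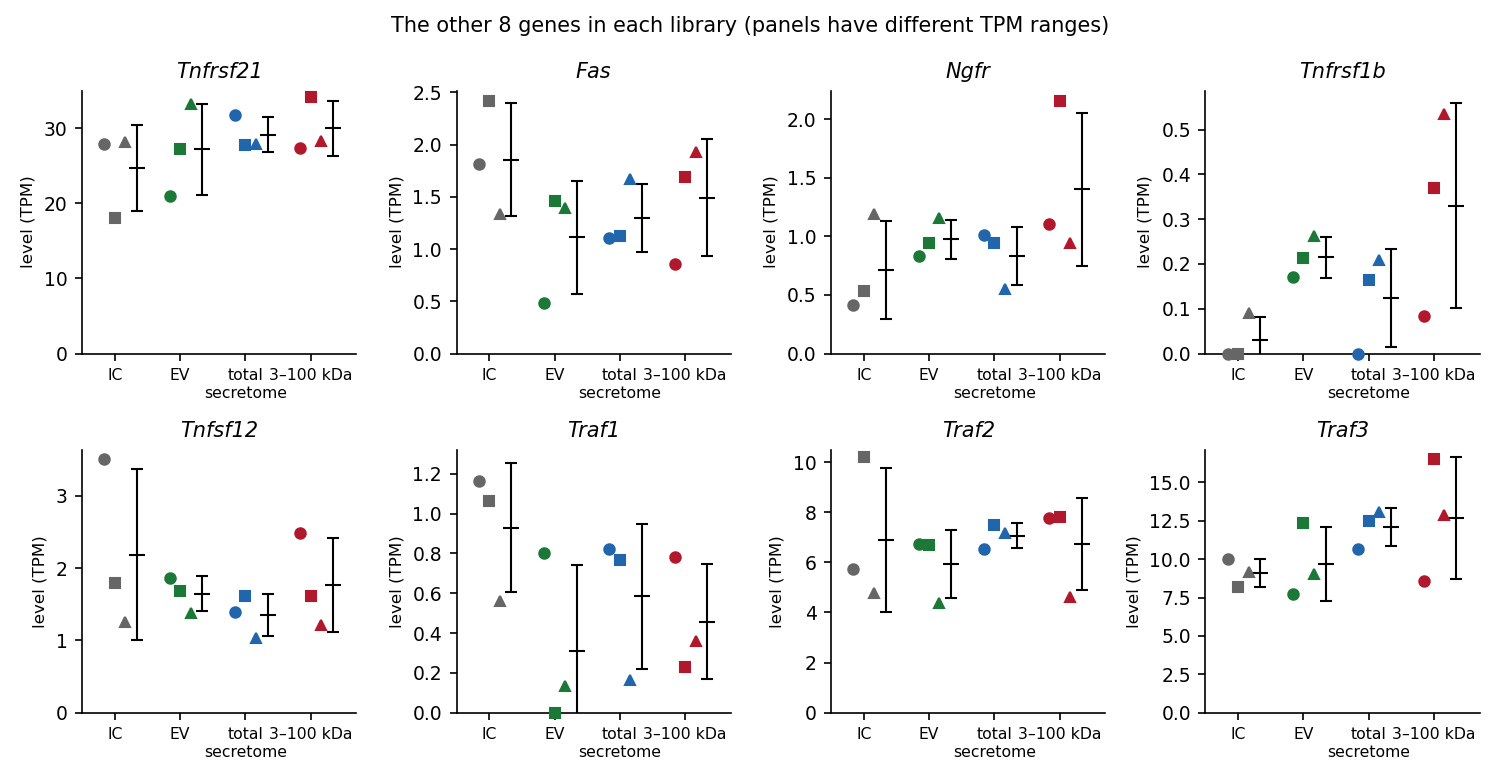
Levels in TPM (vertical axes, from 0, with a range of their own in each panel) of the 8 genes other than Tnfrsf12a and Tnfrsf1a in the 3 libraries of each group, with circles, squares and triangles for replicates 1, 2 and 3 and bars for the mean ± SD. Points of IC overlap with those of at least 1 treatment in every panel, and Tnfrsf1b and Traf1 lie near or below 1 TPM.

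Read over the set, 8 of the 10 genes passed the filter against the 3–100 kDa proteins and 7 in each of the other comparisons with IC, and 2 of them, Tnfrsf12a and Tnfrsf1a, were called higher after the 3–100 kDa proteins. In that comparison 2.82% of all genes tested were called higher and 0.485% lower. After the total secretome the same 2 of 7 were called higher, beside 1.68% of all genes higher and 0.289% lower. After EV 0.102% of all genes were called higher and 0.0392% lower, and no call is given for the 7 members tested, since this comparison guided the choice. EV against the 3–100 kDa proteins called 1 of 8 lower, again Tnfrsf12a, beside 0.495% of all genes lower. With the replicate number as a block, 340 genes were called there in place of 68, and Tnfrsf12a remained called (limma adjusted p = 0.0125). Pairing of these libraries was read from the data and is not given by the labels. EV against the total secretome (0.141% of genes lower) and the total secretome against the 3–100 kDa proteins (0.00787% lower) had 0 of 7 and 0 of 8 members called by limma, and in each Tnfrsf12a was the only member with an unadjusted p under 0.05, beside 7.70% and 2.64% of all genes.

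**Figure D3:**
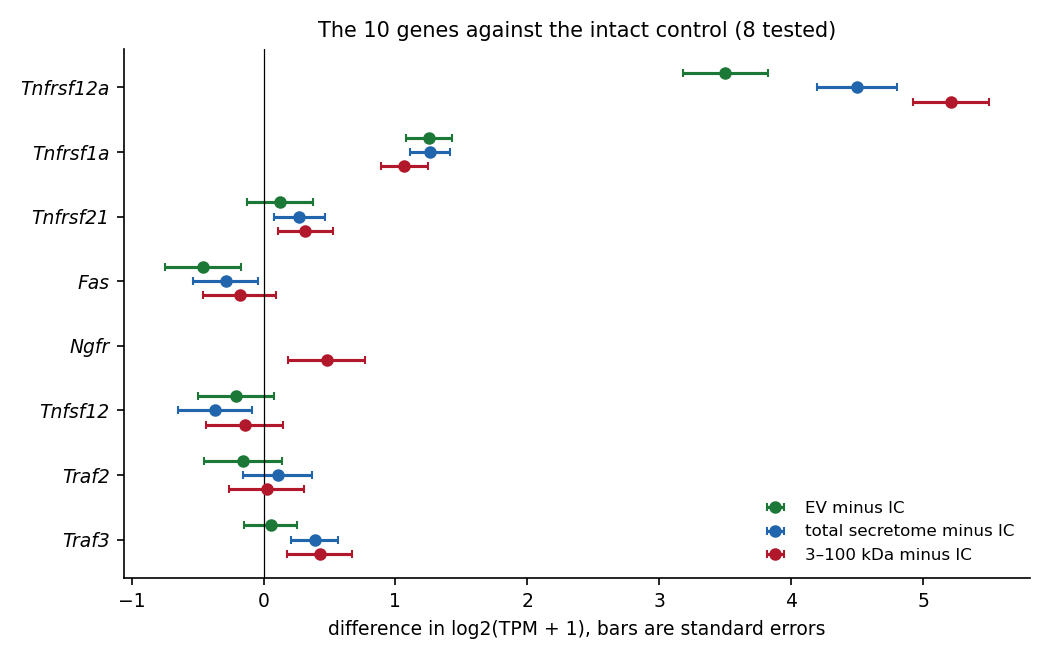
Differences from the intact control in log2(TPM + 1) (horizontal axis) for each of the 8 genes tested in at least 1 comparison, with EV in green, the total secretome in blue and the 3–100 kDa proteins in red and bars for the standard error. Tnfrsf12a lies at 3.50, 4.50 and 5.21, Tnfrsf1a at 1.25, 1.26 and 1.07, and all other genes between −0.46 and 0.48.

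The remaining receptors of the superfamily were mostly close to 0. Of 19, Tnfrsf8 and Tnfrsf14 were listed at 0 in all 12 libraries, and 15 had a mean under 1 TPM. No receptor of this list was called in any comparison with IC by limma, of 4, 3 and 4 tested after EV, the total secretome and the 3–100 kDa proteins, with 1, 2 and 3 at an unadjusted p under 0.05. Of all genes tested, 2.82% had such a p after EV, 16.2% after the total secretome and 17.0% after the 3–100 kDa proteins. The median difference of those tested was 0.03 after EV, 0.47 after the total secretome and 0.47 after the 3–100 kDa proteins, beside −0.01, −0.01 and −0.02 over all genes. The count and median after the 3–100 kDa proteins include Tnfrsf10b, which passed the filter there only through the treated libraries. Ltbr, the lymphotoxin β receptor, held 7.98, 11.7 and 7.97 TPM in IC and 13.5, 17.3 and 12.7 TPM after the total secretome. These did not overlap, as for 13.1% of all genes (log2 difference 0.63, limma adjusted p = 0.187). It also lay above IC without overlap after EV, as for 3.68% of all genes (0.54, limma adjusted p = 0.9998). After the 3–100 kDa proteins it gave 0.29 with overlap (limma adjusted p = 0.578). Tnfrsf19, a receptor without a known TNF-type ligand that is found in neural progenitors and glia, ran the other way, from 7.61, 5.49 and 6.33 TPM in IC to 3.53, 2.96 and 2.49 TPM after the 3–100 kDa proteins (−0.88, limma adjusted p = 0.0604). It also lay below IC without overlap after EV (−0.53, limma adjusted p = 0.9998) and after the total secretome (−0.79, limma adjusted p = 0.203). Libraries lay below IC without overlap for 316 of 12749 genes after EV, 1402 of 12787 after the total secretome and 1401 of 12788 after the 3–100 kDa proteins. Tnfrsf10b, a death receptor for TRAIL, stood at 0.371, 0.301 and 0.576 TPM in IC, while the 3–100 kDa libraries held 1.16, 1.47 and 1.83 TPM (0.82, limma adjusted p = 0.133). With every IC library under 1 TPM, it was tested there only through the treated libraries, so a rise was built in. Relt, an orphan receptor, gave 0.65 in the same comparison (limma adjusted p = 0.188). In a fit of all 12 libraries Tnfrsf19 was called after the 3–100 kDa proteins (limma adjusted p = 0.0484), as it was without the mean-variance trend of limma (0.0351).

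Ligands of the superfamily were scarcer than their receptors. Tnf itself was listed at 0 in all 12 libraries, as were Tnfsf4, Tnfsf8, Tnfsf10, Tnfsf11, Tnfsf14 and Cd40lg, which makes 7 of 17, and 16 of 17 had a mean under 1 TPM. A mean above this was found for Eda, the ectodysplasin gene, which held 2.60 to 4.13 TPM in IC and 2.13 to 2.41 TPM after the 3–100 kDa proteins (log2 difference −0.38, limma adjusted p = 0.406). Ltb, lymphotoxin β, was between 0.297 and 1.53 TPM in all libraries. Only 1 ligand could be tested by limma after EV and after the total secretome and 2 after the 3–100 kDa proteins, too few to read against all genes, and 0 were called or at an unadjusted p under 0.05 (2.82%, 16.2% and 17.0% of all genes).

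Among ligands and partners of the p75 receptor, 1 of 8 genes tested was called after the total secretome and after the 3–100 kDa proteins, beside 1.68% and 2.82% of all genes called higher. Bdnf, whose precursor binds p75 with sortilin and whose mature form binds TrkB, stood at 2.64, 1.33 and 1.09 TPM in IC. It was at 4.01, 3.30 and 4.76 TPM after EV, 10.8, 7.74 and 7.46 TPM after the total secretome and 10.5, 8.94 and 7.82 TPM after the 3–100 kDa proteins. Each treated library was above each IC library, as for 3.68% of all genes after EV, 13.1% after the total secretome and 12.6% after the 3–100 kDa proteins. Bdnf was up-regulated after the 3–100 kDa proteins (log2 difference 1.97, limma adjusted p = 0.00653) and the total secretome (1.89, limma adjusted p = 0.0115) but not called after EV (0.93, limma adjusted p = 0.945), and the call after the total secretome was lost without total secretome replicate 1, 2 or 3 (adjusted p of 0.0510, 0.0733 and 0.0768). Sort1, which encodes sortilin, held 42.8 to 67.3 TPM and Lingo1, a co-receptor of the Nogo receptor complex, 72.0 to 115 TPM over all libraries, with no call. At an unadjusted p under 0.05 were 1, 1 and 2 of the 8 genes after EV, the total secretome and the 3–100 kDa proteins, beside 2.82%, 16.2% and 17.0% of all genes. Medians of the 8, from a list of 10, were 0.02 after EV, 0.15 after the total secretome and 0.14 after the 3–100 kDa proteins.

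The list of 26 adaptors and death-domain proteins held no call against IC by limma, of 21 tested in each comparison. Medians lay between −0.03 and 0.00, beside −0.02 to −0.01 over all genes. Ripk1, the kinase that stands between TNF receptor 1 and both survival and death signalling, was at 5.13, 5.73 and 4.17 TPM in IC and above all of them after each treatment (as for 3.68% of all genes after EV, 13.1% after the total secretome and 12.6% after the 3–100 kDa proteins), at 7.15, 10.4 and 7.53 TPM after EV, 7.04, 9.26 and 7.24 after the total secretome and 6.11, 9.61 and 7.14 after the 3–100 kDa proteins. Its differences were 0.62 (limma adjusted p = 0.9998), 0.57 (0.193) and 0.53 (0.252). Fadd, the death-domain adaptor of Fas, gave 0.61, 0.53 and 0.44 in the same order, and Cyld and Tab1 gave −0.10 and −0.04 after EV, −0.45 and −0.14 after the total secretome and −0.39 for both after the 3–100 kDa proteins. None of these passed the test. At an unadjusted p under 0.05, Ripk1 alone was counted in each of the 3 comparisons, which is 1 of 21 beside 2.82% of all genes after EV, 16.2% after the total secretome and 17.0% after the 3–100 kDa proteins.

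Core genes of NF-κB did not pass the test in the comparisons as designed. Of 10 tested from 12 core genes, limma called 0 after each treatment, with 1, 3 and 3 at an unadjusted p under 0.05 after EV, the total secretome and the 3–100 kDa proteins, beside 2.82%, 16.2% and 17.0% of all genes. The median difference was 0.15 after EV, 0.15 after the total secretome and 0.38 after the 3–100 kDa proteins. Relb, the subunit of the alternative pathway that TWEAK is known to engage, held 1.18, 1.24 and 0.489 TPM in IC and 4.38, 2.94 and 2.64 TPM after the 3–100 kDa proteins (log2 difference 1.16, limma adjusted p = 0.0579), while after EV it was at 1.23, 0.772 and 1.57 TPM (0.17). Nfkb1, the gene of the p105 precursor and its p50 subunit, stood at 7.35, 6.08 and 5.84 TPM in IC, and the 3–100 kDa libraries held 9.60, 15.6 and 13.0 TPM (0.90, limma adjusted p = 0.0754). That p was 0.0398 without 3–100 kDa replicate 1. Rela gave 0.52, 0.55 and 0.57 after EV, the total secretome and the 3–100 kDa proteins. Nfkb2 gave 0.05, 0.04 and 0.42, and neither was called. A single fit of all 12 libraries, which shares 1 estimate of the spread, called Nfkb1 (limma adjusted p = 0.0132) and Relb (0.0207) after the 3–100 kDa proteins, and a fit without the mean-variance trend also called Relb (0.0369).

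Among 21 feedback genes and targets of NF-κB, 1 was called, of 10 tested after the total secretome and 11 after the 3–100 kDa proteins, beside 1.68% and 2.82% of all genes called higher. At an unadjusted p under 0.05 were 5 of 9 after EV, 5 of 10 and 8 of 11, beside 2.82%, 16.2% and 17.0% of all genes. The list was written with earlier results of these data known, and Ccl2 passed the filter only through treated libraries. These counts are therefore a description and no measure of an excess over all genes. Ccl2, the chemokine that attracts monocytes, had 0.378, 0 and 0 TPM in the IC libraries. It stood at 4.20, 46.3 and 18.7 TPM after EV, 9.61, 68.9 and 39.4 TPM after the total secretome and 78.1, 154 and 78.5 TPM after the 3–100 kDa proteins, and replicate 2 was the highest of each treated group. The log2 difference was 3.92 after EV (limma adjusted p = 0.182), 4.82 after the total secretome (limma adjusted p = 0.0137) and 6.50 after the 3–100 kDa proteins (limma adjusted p = 0.000221), and the call after the total secretome was lost without IC replicate 1 (adjusted p = 0.0600). With IC at or near 0 these differences depend on the added 1 TPM. Tnip2, which restrains NF-κB, gave 0.99, 0.85 and 1.02 (limma adjusted p of 0.450, 0.124 and 0.0762), and Lif, a cytokine of the interleukin 6 family, gave 1.10 after the 3–100 kDa proteins (limma adjusted p = 0.0841). Vcam1, an adhesion molecule that TNF induces in endothelium, went the other way and gave −0.54, −0.38 and −0.72 in the same order (limma adjusted p of 0.9998, 0.306 and 0.101), and the last 2 became 0.0440 and 0.0434 without IC replicate 2. The fit of all 12 libraries called Tnip2 (limma adjusted p = 0.0212), Lif (0.0178) and Vcam1 (0.0182) after the 3–100 kDa proteins, and the fit without the mean-variance trend called Tnip2 (0.0470) and Lif (0.0499). Medians of the genes tested were 0.05 for 9 genes after EV, 0.43 for 10 after the total secretome and 0.66 for 11 after the 3–100 kDa proteins. These sets of genes differ, since Lif was tested against IC only after the 3–100 kDa proteins. Genes low in IC, such as Ccl2, entered through treated libraries, so the medians are not independent of the filter.

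**Figure D4:**
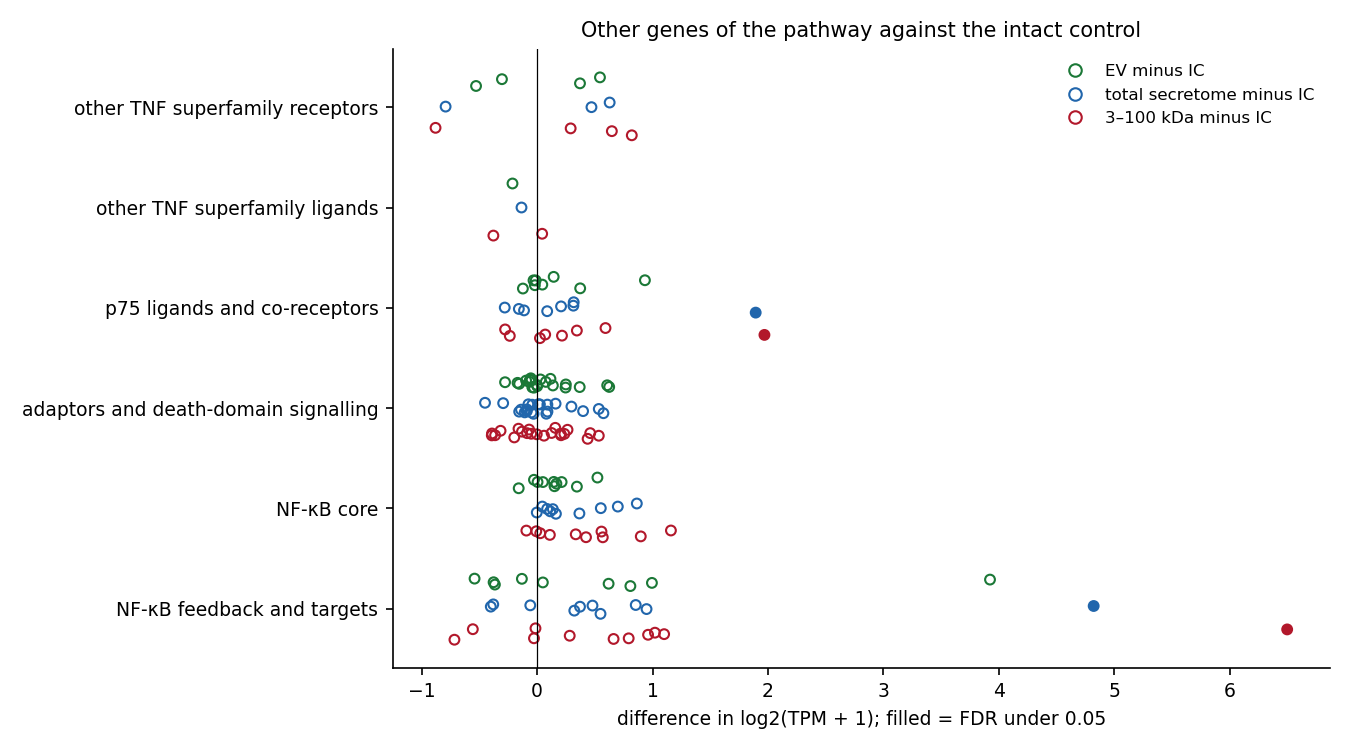
Differences from the intact control in log2(TPM + 1) (horizontal axis) for every tested gene of 6 lists of TNF receptor signalling (rows), with EV in green, the total secretome in blue and the 3–100 kDa proteins in red and filled circles for an FDR under 0.05. Filled circles are Bdnf at 1.89 and 1.97 and Ccl2 at 4.82 and 6.50, and the remaining genes are open.

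Genes whose levels ran most like Tnfrsf12a were sought by Pearson correlation of log2(TPM + 1) over the 12 libraries, among 11965 genes with a mean of at least 2 TPM. The 8 genes of highest r were Timp1 (0.991), Tagln2 (0.986), Bdkrb2 (0.984), Bag3 (0.982), ENSRNOG00000061928 (0.981), Pdpn (0.980), Trim47 (0.979) and Lgals3 (0.978). Timp1, an inhibitor of matrix metalloproteinases, stood at 8.90 to 19.7 TPM in IC, 95.4 to 125 after EV, 97.0 to 170 after the total secretome and 200.1 to 260 after the 3–100 kDa proteins. Lgals3, the gene of galectin-3, stood at 0.410 to 4.47 TPM in IC and 63.6 to 78.4 TPM after the 3–100 kDa proteins. Pdpn, podoplanin, started higher, at 38.1 to 56.1 TPM in IC, and reached 158 to 165 TPM.

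By Spearman correlation the 8 genes ranked between 17 and 170 among the same genes, so the choice depends on the measure. These correlations follow the groups, since the 12 points are 4 conditions of 3 libraries, and r above 0.9 was reached by 156 genes (1.30%). Over the 6 libraries of the total secretome and the 3–100 kDa proteins alone, r of the 8 genes was between 0.525 for Bag3 and 0.985 for Pdpn. Tnfrsf1a had an r of 0.876 with Tnfrsf12a over 12 libraries and of −0.01 over these 6. Traf3 (0.545), Tnfrsf21 (0.404) and Traf2 (0.160) were further from it, and the other members had means under 2 TPM.

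**Figure D5:**
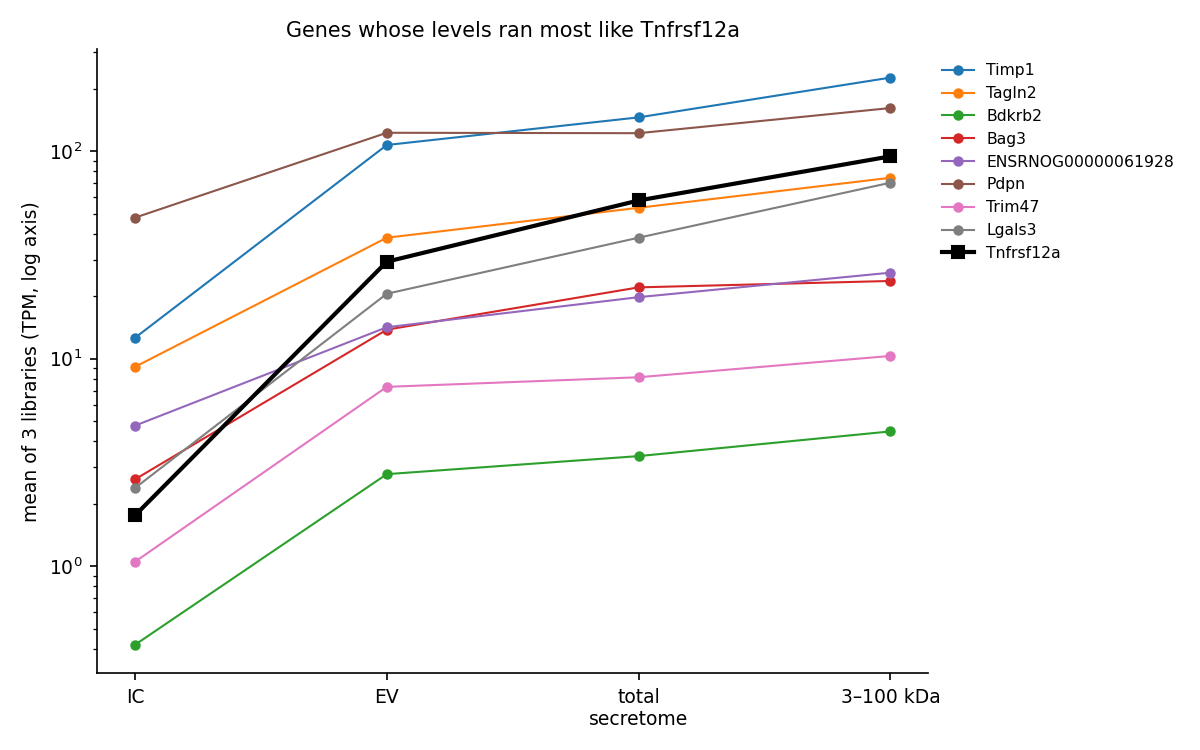
Mean TPM of 3 libraries (vertical log axis) in the 4 groups (horizontal axis) for Tnfrsf12a, in black, and the 8 genes of highest correlation with it, in colours. All 9 lines are lowest in IC and highest after the 3–100 kDa proteins, with Tnfrsf12a the steepest from 1.76 to 94.3 TPM.

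Cell type markers were read beside these results. Defining markers of neurons and astrocytes were present, with 2409 to 2539 TPM summed over 8 neuronal genes in IC and 862 to 1121 TPM over 7 astrocyte genes. Neuronal sums were 2343 to 2655 TPM after EV, 1968 to 2424 after the total secretome and 2033 to 2315 after the 3–100 kDa proteins, and astrocyte sums were 1128 to 1475, 1188 to 1530 and 985 to 1377 TPM. Without Gfap, the sum of the other 6 astrocyte genes was 733 to 926 TPM in IC, 706 to 858 after EV, 851 to 917 after the total secretome and 743 to 930 after the 3–100 kDa proteins. The median difference of all 7 genes was 0.01 after EV, 0.28 after the total secretome and 0.24 after the 3–100 kDa proteins. Over all genes these medians were −0.01, −0.01 and −0.02. Gfap, the filament protein of astrocytes, was at 85.1, 361 and 128 TPM in IC. EV libraries held 491, 617 and 362 TPM. Its differences from IC were 1.58, 1.40 and 1.05 after EV, the total secretome and the 3–100 kDa proteins (limma adjusted p of 0.9998, 0.269 and 0.356). With the replicate number as a block, Gfap was called after the total secretome (limma adjusted p = 0.0256), and without IC replicate 2 it was called after the total secretome (0.0360) and the 3–100 kDa proteins (0.0370). Sums over 7 genes of the oligodendrocyte lineage were 182 to 235 TPM in IC, 192 to 231 after EV, 238 to 264 after the total secretome and 124 to 189 after the 3–100 kDa proteins. The part of these shifts in the receptor levels was not tested.

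Cells that often carry TNF receptors were nearly absent by their markers. All 10 microglial markers had a mean under 1 TPM, Ptprc was listed at 0 in all 12 libraries, and their sum was 0.425 to 3.19 TPM in IC, 0.594 to 1.52 after EV, 1.90 to 3.12 after the total secretome and 0.834 to 1.91 after the 3–100 kDa proteins. The 4 endothelial markers in the files summed to at most 0.595 TPM in any library. Fibroblast and mural markers summed to between 2.05 and 4.28 TPM, and Pdgfrb, a mural cell gene, fell from 3.18, 4.01 and 2.45 TPM in IC to 0.481, 0.851 and 0.321 TPM after the 3–100 kDa proteins (log2 difference −1.42, limma adjusted p = 0.0234). After the total secretome it gave −0.92 (limma adjusted p = 0.0912), with 0.0342 in the fit of all 12 libraries and 0.0426 without the trend. The call after the 3–100 kDa proteins was lost without 3–100 kDa replicate 1, 2 or 3 (adjusted p of 0.0673, 0.0781 and 0.134). Col1a1, a collagen gene of fibroblasts and the only other gene of this list tested there, went the other way, from 0.360, 0.0365 and 0.261 TPM in IC to 1.29, 1.64 and 1.81 TPM (1.10, limma adjusted p = 0.0567). Col1a1 passed the filter only through the treated libraries, so a rise was built into its test.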

How the data were processed

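RNA sequencing of 12 libraries, 3 each of IC, EV, total secretome and 3–100 kDa proteins, was analysed from the deposited gene tables. Per the article, the authors trimmed the reads with Trimmomatic and Cutadapt, quantified transcripts with Salmon against rat transcripts (Rnor_6.0 per the submitters' processing notes) and summed them per gene with tximport. The authors deposited no name of the unit, and the values, which sum to 1000000 per library, were taken as TPM. Per the labels the libraries were strand-specific mRNA libraries for DNBSEQ, while the article describes another kit and a NextSeq instrument.

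Rows of one name were summed. Within each of 6 comparisons TPM was rescaled by median-of-ratios factors, genes with 1 TPM in 3 libraries were kept, and log2(TPM + 1) was fitted on the 6 libraries with limma 3.58.1 (lmFit, eBayes with trend) in R 4.3.3, two-sided, with Benjamini-Hochberg adjustment over all genes. The procedure was tested on simulated data. The count test of the article could not be used, since TPM are not counts and at most 8.50% of 200 low values per library were whole multiples of a common step within a tolerance of 0.01.

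The members and all lists were chosen with earlier results of these data known. Counts of list genes beside shares of all genes are therefore a description. Named were all members, each list's genes at an FDR under 0.05 in any comparison and up to 4 of lowest p against IC, and the 8 genes of highest correlation with Tnfrsf12a. Other pseudocounts, filters, rescalings and fits and each omission of 1 library were tried. Same-numbered libraries were read as paired where the correlations of their deviations from the group means all exceeded 0.1. This held for the total secretome and IC (0.24, 0.14 and 0.16), EV and the 3–100 kDa proteins (0.55, 0.25 and 0.27), EV and the total secretome (0.24, 0.18 and 0.18) and both protein preparations (0.34, 0.17 and 0.20), a hint from the data and not from the labels. A total secretome paired with each other group would also pair IC with EV and the 3–100 kDa proteins. The reading is therefore not settled. Before a plot of IC and EV libraries, the article removed variation by a day covariate without saying which libraries share a day. The values of 1 gene that the rule for named genes selects are not reported here.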

Additional observations from a re-analysis of the deposited data

How the results depend on the processing

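TPM hides the depth, the groups have 3 libraries and comparisons with IC share its libraries. Many calls were lost when 1 library was left out. The rise of Tnfrsf12a against IC after the total secretome and the 3–100 kDa proteins held under every alternative and omission run. After EV its log2 difference was 4.12 with a pseudocount of 0.1 in place of 3.50. Of 88 differences of the other named genes, 69 kept their direction throughout. The genes of highest correlation with Tnfrsf12a had a median Spearman rho of 0.941, beside a median r of 0.981, and ranked between 17 and 170 by rho. The causes of the changes below were not tested, apart from the smaller sets of genes or libraries that filters and omissions leave.

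Counts of genes at an FDR under 0.05 moved with 1 fit of all 12 libraries to 58 from 18 (EV against IC), 912 from 423 (3–100 kDa proteins against IC), 533 from 252 (total secretome against IC), 182 from 68 (EV against 3–100 kDa proteins), 57 from 24 (EV against total secretome) and 0 from 2 (total secretome against 3–100 kDa proteins, with 272 at an unadjusted p under 0.05). A filter of 5 TPM gave 8 for EV against IC, no filter 43 for EV against 3–100 kDa proteins and no rescaling 4 for total secretome against 3–100 kDa proteins. By unadjusted p and a fold over 1.5 the filter of 5 TPM gave 151 from 275 (EV against IC) and 86 from 158 (total secretome against 3–100 kDa proteins).

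With the replicate number as a block, limma called 0 genes for EV against IC (364 at an unadjusted p under 0.05) and 193 for 3–100 kDa proteins against IC, where Tnfrsf1a had an adjusted p of 0.0903 and Pdgfrb of 0.0520. Correlations of same-numbered libraries were −0.05, −0.16 and 0.47 between EV and IC and 0.01, −0.22 and 0.22 between 3–100 kDa proteins and IC. Pairing was not read from these values, but it was not excluded. The calls lost under the block therefore stand as a limit. In the comparisons read as paired the block gave 340 for EV against 3–100 kDa proteins and 5 for total secretome against 3–100 kDa proteins, called Gfap after the total secretome, and changed no other call among the named genes against IC or for Tnfrsf12a and Tnfrsf1a between treatments.

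Omissions of 1 library moved the FDR counts between 0 and 21 (EV against IC), 83 and 484 (3–100 kDa proteins against IC), 31 and 809 (total secretome against IC), 2 and 72 (EV against 3–100 kDa proteins), 0 and 52 (EV against total secretome) and 0 and 3 (total secretome against 3–100 kDa proteins). In the fits without any call, 230 to 607 genes had an unadjusted p under 0.05. By p and fold the counts moved between 217 and 443 (EV against IC), 364 and 891 (EV against total secretome) and 157 and 280 (total secretome against 3–100 kDa proteins). The log2 difference of Tnfrsf12a between EV and the 3–100 kDa proteins lay between −1.83 and −1.54.

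Directions that changed belonged to differences near 0 without a call. Settings turned Traf2 after the 3–100 kDa proteins (−0.0018 without rescaling, −0.0058 with upper-quartile rescaling), Nfkb2 after the total secretome (−0.026 with a pseudocount of 0.1) and Tnfrsf1a between EV and the total secretome (−0.0015 with upper-quartile rescaling, −0.0022 in the fit of all libraries). Omissions gave, after EV, −0.08 to 0.28 for Tnfrsf21, −0.40 to 0.04 for Tnfsf12, −0.31 to 0.12 for Traf2, −0.08 to 0.18 for Traf3, −0.14 to 0.11 for Sort1, −0.077 to 0.089 for Lingo1, −0.41 to 0.29 for Cyld, −0.18 to 0.18 for Tab1, −0.0012 to 0.33 for Relb and −0.077 to 0.15 for Nfkb2. After the 3–100 kDa proteins they gave −0.35 to 0.035 for Fas, −0.33 to 0.11 for Tnfsf12, −0.13 to 0.30 for Traf2 and −0.10 to 0.18 for Ltb. After the total secretome they gave −0.047 to 0.38 for Traf2, −0.25 to 0.069 for Eda, −0.28 to 0.075 for Tab1 and −0.26 to 0.34 for Nfkb2, and between EV and the total secretome −0.11 to 0.14 for Tnfrsf1a.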
